A study of Mus musculus with 4 samples.

Results

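The Wnt pathway was examined in the hippocampus, a brain region needed to form memories, through 52 genes of the 19230 in the expression table. Members were taken by gene symbol, but the set was chosen with earlier results of these data known. It held the Wnt ligands, the Frizzled receptors with the co-receptors Lrp5 and Lrp6, the R-spondins Rspo1, Rspo2 and Rspo3, the secreted inhibitors (Sfrp and Dkk families, Frzb and Wif1), and Axin1, Axin2, Ctnnb1 and the TCF/LEF factors. Each gene had a value in all 4 libraries. The LA group held 2 libraries (replicates 1 and 2) from C57BL/6 mice aged 12 months that received licochalcone A (LA), a chalcone of licorice root, for 30 days. The Ctrl group held 2 libraries (replicates 2 and 3) from C57BL/6 mice of the same age. The Ctrl label carries a term for cell culture, and neither the dose of LA nor a vehicle is given in the sources used here. Whether each library is a different mouse is not stated, so the p-values rest on variation from library to library that could be technical.

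Wnt proteins are secreted glycolipoproteins that bind Frizzled receptors. In the canonical branch, a Frizzled and an Lrp co-receptor together stop the Axin-containing destruction complex from degrading β-catenin, which then enters the nucleus and acts with TCF/LEF factors on target genes. R-spondins raise the number of receptors at the surface, whereas Sfrp proteins, Frzb and Wif1 bind Wnt ligands and Dkk1 blocks the co-receptor. In the adult hippocampus, Wnt signals are known for their part in the birth of granule neurons and in synapse maintenance, and in brain vessels for keeping the blood-brain barrier.

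Values are FPKM, fragments mapped to a gene scaled by transcript length and by the mapped fragments of the library, so levels can be set against each other between genes. FPKM summed to 388932 to 441948 in LA and 386945 to 394912 in Ctrl. Read totals were not used here; ratios among low values gave a depth of 94.0% to 100% relative to Ctrl replicate 3. The 14 markers of hippocampal neurons were all above 0 in every library, with sums of 424 and 427 FPKM in LA and 391 and 378 FPKM in Ctrl. Both LA libraries were above both Ctrl libraries for 5 of them and below for 1, against 15.7% and 20.1% of all genes in the table. Markers of other tissues differed between the libraries. The marker lists were chosen with earlier results of these data known. The 17 markers of the leptomeninges, the membranes around the brain, summed to 94.7 and 106 FPKM in LA and to 293 and 333 FPKM in Ctrl, with no marker at 0. Both LA libraries were below both Ctrl libraries for 17 of 17, against 20.1% of all genes in the table. The 15 markers of the choroid plexus, the epithelium that secretes cerebrospinal fluid, summed to 140.0 and 173 FPKM in LA replicates 1 and 2, 77.8 FPKM in Ctrl replicate 2 and 8990 FPKM in Ctrl replicate 3. In tissue of mixed cells, fewer cells of a type and less RNA per cell cannot be told apart.

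Of the 52 genes, 38 had a negative log2 fold change of LA over Ctrl (73.1%) when all genes above 0 were fitted, against 54.3% of all 19080 genes so fitted. Their median was -0.17, against -0.017 over those genes. Both LA libraries lay below both Ctrl libraries for 19 of the 52 (36.5%) and above them for 1, Tcf7l2, where 20.1% and 15.7% of all genes in the table did so. No gene of the set passed the test. The test was limma on log2(FPKM + 1) and took in 13518 genes whose mean reached 1 FPKM. With limma 0 of the 31 tested members had an adjusted p under 0.05 in either direction, while 0.141% of all tested genes did in the lower direction and 0% in the higher. At an unadjusted p under 0.05, 9 members were lower with LA and 0 higher, against 4.06% and 3.74% of all tested genes. These were Wnt10b, Wnt6, Sfrp1, Fzd6, Wnt5a, Lrp5, Sfrp4, Fzd7 and Fzd4. Among them, 5 had an LA mean under 1 FPKM and thus reached the filter through the Ctrl libraries, so the count of 9 is no support for a change of the set. Without that filter it was 7 of 52 by the same test, without Fzd7 and Fzd4, where 4.07% of all genes were lower at this level. Fold changes are on the log2(FPKM + 1) scale, which understates differences of low genes.

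**Figure D1:**
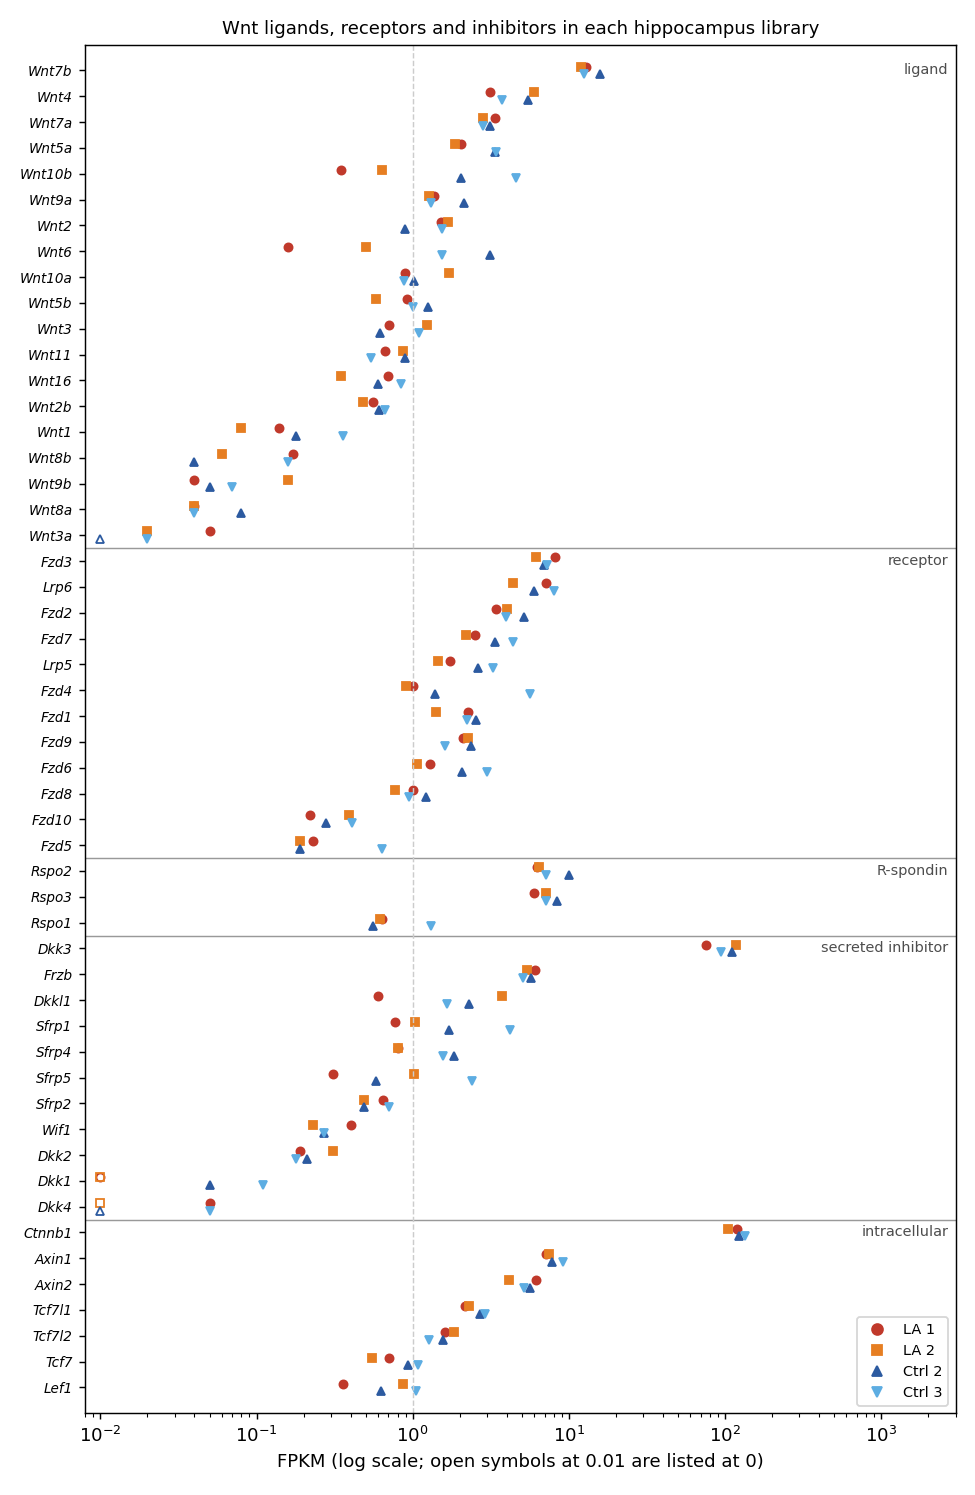
FPKM of the 52 genes on a log axis, grouped by role and ordered by mean level, with 1 symbol per library (LA above, Ctrl below within each row). Ctnnb1 and Dkk3 stood between 76.2 and 134 FPKM, the LA symbols of Wnt10b and Wnt6 lay to the left of their Ctrl symbols, and the dashed line marks 1 FPKM.

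Among the 19 ligands, Wnt7b was the most abundant, with 12.9 and 12.0 FPKM in LA and 15.8 and 12.5 FPKM in Ctrl. Wnt7b, a canonical ligand made by neurons and glia that acts on brain endothelium, supplied 43.4% and 37.2% of the summed ligand FPKM in LA and 38.2% and 33.6% in Ctrl. Its groups overlapped, and its log2 fold change of -0.16 had a 95% interval of -0.57 to 0.25. Wnt4 followed, with 3.14 and 5.99 FPKM in LA and 5.49 and 3.71 FPKM in Ctrl. Its spread within each group exceeded the difference of the means, 4.57 ± 2.02 FPKM in LA and 4.60 ± 1.26 FPKM in Ctrl (SD, n = 2 each). Wnt7a, a close relative of Wnt7b, averaged 3.08 ± 0.375 FPKM in LA and 2.98 ± 0.205 FPKM in Ctrl. Summed over all ligands, the libraries held 29.7 and 32.4 FPKM in LA and 41.4 and 37.2 FPKM in Ctrl.

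Wnt10b, a canonical ligand, had the smallest p of the set. It had 0.35 and 0.64 FPKM in LA, against 2.04 and 4.60 FPKM in Ctrl, so both LA libraries were below the lower Ctrl library, while the Ctrl libraries differed 2.25-fold from each other. The Ctrl mean was 6.71 times the LA mean. The log2 fold change was -1.47 (standard error 0.316, adjusted p = 0.293 from limma), with a 95% interval of -2.21 to -0.73. Without Ctrl replicate 2 it was -1.91, and without Ctrl replicate 3 it was -1.03. The LA mean of Wnt10b was under 1 FPKM, so it reached the filter through the Ctrl libraries. Without that filter its adjusted p was 0.649 from limma. Wnt6, also known as a canonical ligand, showed the opposite order within Ctrl. It had 0.16 and 0.50 FPKM in LA, against 3.14 FPKM in Ctrl replicate 2 and 1.55 FPKM in Ctrl replicate 3. The Ctrl mean was 7.11 times the LA mean, and the log2 fold change was -1.30 (standard error 0.294, adjusted p = 0.344 from limma). Without Ctrl replicate 3 it was -1.65, and without Ctrl replicate 2 it was -0.95. Wnt6 too had an LA mean under 1 FPKM, and without the filter its adjusted p was 0.642 from limma. Wnt5a, the typical ligand of the non-canonical branches, varied less within groups than Wnt10b and Wnt6. It had 2.05 and 1.86 FPKM in LA and 3.39 and 3.44 FPKM in Ctrl, a log2 fold change of -0.58 (adjusted p = 0.578 from limma) that ranged over -0.63 to -0.53 when single libraries were omitted.

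Several Wnt genes lie in pairs in the genome, so the neighbours of Wnt6 and Wnt10b are given beside them. On chromosome 1 of GRCm38, Wnt6 (74754342 to 74785322) ends 6.7 kb before Wnt10a (74792019 to 74804176), which had 0.89 and 1.72 FPKM in LA and 1.02 and 0.88 FPKM in Ctrl. Its groups overlapped, with a log2 fold change of 0.22 (95% interval -0.37 to 0.81). On chromosome 15, Wnt10b (98770712 to 98778206) lies 11.7 kb from Wnt1 (98789857 to 98793830), which was too low to test, at 0.14 and 0.08 FPKM in LA and 0.18 and 0.36 FPKM in Ctrl. Both genes of this pair thus had lower values in LA, whereas Wnt6 and Wnt10a differed in sign; the differences within pairs were not tested. The Wnt3a and Wnt9a genes, 16.1 kb apart on chromosome 11, differed in level: Wnt3a reached at most 0.05 FPKM in any library, whereas Wnt9a had 1.38 and 1.27 FPKM in LA and 2.13 and 1.32 FPKM in Ctrl. The RefSeq promoter table (GRCm38.p6) matched 35 of the 52 genes, and 4 of the 9 members of smallest p. The sequences ahead of Wnt10b, Wnt6 and Fzd7 are shown for these lower values in LA, and that of Fzd4, which overlaps an exon of another gene, is not. Each is read 5′ to 3′ on the gene's strand and ends at the base before the start site of 1 RefSeq transcript, or, for Wnt10b, before the outermost base of the gene. The window of Wnt6 lies inside the longer RefSeq span of that gene. They occupy chr15:98778207-98778400 (minus strand), chr1:74771642-74771891 (plus strand) and chr1:59481897-59482146 (plus strand).
Wnt10b: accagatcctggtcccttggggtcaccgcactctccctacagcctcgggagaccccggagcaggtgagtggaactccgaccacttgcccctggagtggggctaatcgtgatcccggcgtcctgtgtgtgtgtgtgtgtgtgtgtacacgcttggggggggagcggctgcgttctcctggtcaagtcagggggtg
Wnt6: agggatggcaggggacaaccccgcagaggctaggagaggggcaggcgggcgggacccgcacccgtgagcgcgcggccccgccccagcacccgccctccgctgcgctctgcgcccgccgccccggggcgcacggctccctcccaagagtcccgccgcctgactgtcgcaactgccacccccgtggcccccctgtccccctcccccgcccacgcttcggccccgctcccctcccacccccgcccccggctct
Fzd7: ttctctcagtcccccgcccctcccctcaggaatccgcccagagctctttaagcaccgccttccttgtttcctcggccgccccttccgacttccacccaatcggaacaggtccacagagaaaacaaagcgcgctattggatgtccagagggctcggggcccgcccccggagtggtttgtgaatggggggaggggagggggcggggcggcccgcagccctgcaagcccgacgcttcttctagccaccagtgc

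All of these were rich in G and C, with 63.9%, 79.6% and 65.2% in the windows of Wnt10b, Wnt6 and Fzd7, against a median of 52.4% over the 32851 windows of 250 bases in the table. They held 10, 28 and 17 CpG dinucleotides, against a median of 6. Across all members the median GC content was 66.8%. The core letters bound by TCF/LEF factors, searched as CTTTGAT and CTTTGAA on both strands, were in 3 of 44 windows of members (6.82%) and in 7.48% of all windows, and in none of the windows of Wnt10b, Wnt6, Fzd7 and Axin2. The windows with a match were those of Wnt5b, Wnt11 and Dkk1. The match of Dkk1, a feedback inhibitor known to be induced by β-catenin, lies within chr19:30549597-30549623 on the minus strand and is shown with the core in capitals.
Dkk1: cctcccaaagCTTTGAAatcccatccc

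Dkk1 itself was listed at 0 in both LA libraries and at 0.05 and 0.11 FPKM in Ctrl, and a 0 in such a table can be a failed estimate. A match of letters is a description and says nothing of binding.

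**Figure D2:**
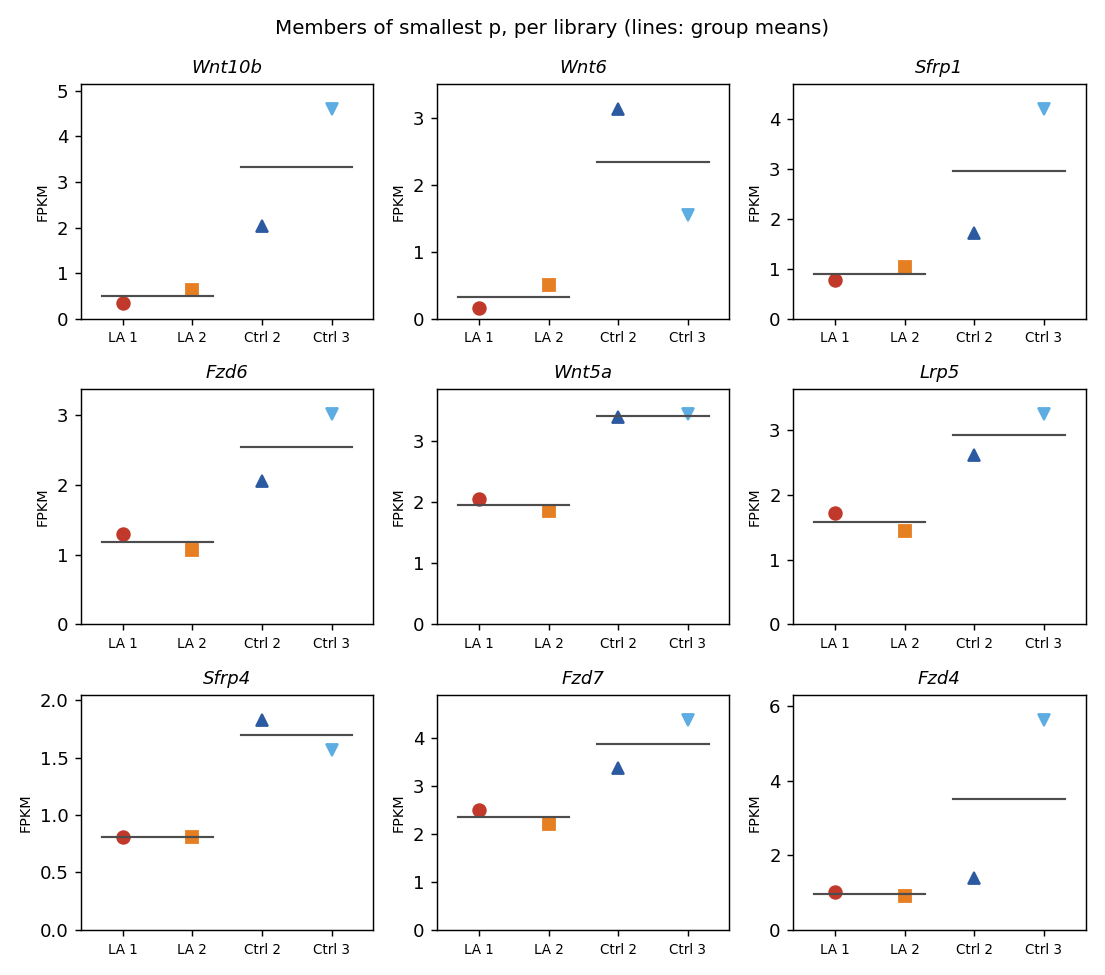
FPKM per library of the 9 members of smallest p, with the LA libraries left of the Ctrl libraries and a line at each group mean; each vertical axis starts at 0. Wnt5a and Sfrp4 were alike within each group, whereas Fzd4, Sfrp1 and Wnt10b were highest in Ctrl replicate 3 and Wnt6 in Ctrl replicate 2.

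The receptors were led by Fzd3, which serves axon guidance and planar polarity, with 8.20 and 6.15 FPKM in LA and 6.97 and 7.27 FPKM in Ctrl. The group means of Fzd3, 7.17 ± 1.45 FPKM in LA and 7.12 ± 0.212 FPKM in Ctrl, differed by less than the spread in LA. Lrp6, the main co-receptor of canonical signalling, had 7.17 and 4.42 FPKM in LA and 5.99 and 8.01 FPKM in Ctrl. Its groups overlapped, with a 95% interval of the log2 fold change of -0.84 to 0.33. Lrp5, the related co-receptor that brain vessels need together with Fzd4, had 1.73 and 1.45 FPKM in LA, against 2.62 and 3.25 FPKM in Ctrl. The groups did not overlap, and the log2 fold change was -0.60 (standard error 0.210, adjusted p = 0.595 from limma).

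Fzd4, the receptor of Norrin and of Wnt ligands on endothelial cells, had 1.01 and 0.91 FPKM in LA, 1.39 FPKM in Ctrl replicate 2 and 5.63 FPKM in Ctrl replicate 3. Its difference thus rested largely on Ctrl replicate 3, which had 4.05 times the value of the other Ctrl library. The log2 fold change was -1.02 (adjusted p = 0.640 from limma), but -0.29 without Ctrl replicate 3 and -1.76 without Ctrl replicate 2. The LA mean of Fzd4 was under 1 FPKM, so it reached the filter through the Ctrl libraries. Fzd6, a planar polarity receptor, had 1.29 and 1.06 FPKM in LA and 2.06 and 3.01 FPKM in Ctrl, a log2 fold change of -0.69 (adjusted p = 0.577 from limma). Fzd7, a canonical receptor of many stem cells, had 2.50 and 2.20 FPKM in LA and 3.38 and 4.38 FPKM in Ctrl, a log2 fold change of -0.54 (adjusted p = 0.609 from limma). For Fzd6 and Fzd7 the LA libraries were close to each other and both below Ctrl, with the higher Ctrl value again in replicate 3.

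Fzd1, which overlapped between groups, had 2.26 and 1.41 FPKM in LA and 2.54 and 2.23 FPKM in Ctrl, a log2 fold change of -0.27 (95% interval -0.81 to 0.27). Fzd2 averaged 3.74 ± 0.424 FPKM in LA and 4.56 ± 0.849 FPKM in Ctrl, and Fzd9 2.18 ± 0.127 FPKM in LA and 1.99 ± 0.552 FPKM in Ctrl. Fzd5, Fzd8 and Fzd10 were too low to test, with means over the libraries of 0.312 to 0.985 FPKM. The members just under the limit of 1 FPKM were Fzd8 (mean 0.985 FPKM) and Wnt5b (0.94 FPKM), and those just above it Sfrp5 (1.08 FPKM) and Wnt10a (1.13 FPKM).

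R-spondins, the ligands of Lgr receptors, were represented mainly by Rspo2 and Rspo3. Rspo2 had 6.25 and 6.46 FPKM in LA and 10.1 and 7.20 FPKM in Ctrl, and Rspo3 had 6.02 and 7.17 FPKM in LA and 8.40 and 7.19 FPKM in Ctrl. Neither overlapped between groups, although for Rspo3 LA replicate 2 and Ctrl replicate 3 were nearly equal. Their log2 fold changes were -0.38 (95% interval -0.85 to 0.10) and -0.21 (-0.65 to 0.22). Rspo1 was lower, at 0.64 and 0.62 FPKM in LA and 0.56 and 1.31 FPKM in Ctrl.

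The secreted inhibitors were dominated by Dkk3, a divergent member of the Dickkopf family that is strongly expressed by pyramidal neurons. Dkk3 had 76.2 and 118 FPKM in LA and 110.3 and 94.1 FPKM in Ctrl and made up 85.3% to 90.1% of the summed FPKM of the inhibitors. LA held both its lowest and its highest library, and the log2 fold change was -0.10 (95% interval -0.64 to 0.44). Frzb, which binds Wnt ligands outside the cell, was even across libraries, with 6.05 and 5.41 FPKM in LA and 5.70 and 5.10 FPKM in Ctrl. Its log2 fold change of 0.07 had a 95% interval of -0.35 to 0.50.

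Sfrp1, a secreted Frizzled-like protein that sequesters ligands, had 0.77 and 1.03 FPKM in LA, against 1.72 and 4.21 FPKM in Ctrl. The groups did not overlap, but Ctrl replicate 3 had 2.45 times the value of Ctrl replicate 2. The log2 fold change was -0.99 (standard error 0.321, adjusted p = 0.562 from limma). Without Ctrl replicate 3 it was -0.52, and without Ctrl replicate 2 it was -1.46. Sfrp1 had an LA mean under 1 FPKM and thus reached the filter through the Ctrl libraries. Sfrp4, of the same family, had 0.81 FPKM in both LA libraries and 1.83 and 1.57 FPKM in Ctrl, a log2 fold change of -0.58 (adjusted p = 0.609 from limma) that lay between -0.64 and -0.51 with each library left out. Sfrp5 had 0.31 and 1.02 FPKM in LA and 0.58 and 2.39 FPKM in Ctrl, so its groups overlapped. Its log2 fold change of -0.51 (95% interval -1.43 to 0.41) was 0.042 without Ctrl replicate 3. Dkkl1, a Dkk3-related gene best known from the testis, was the least even member within a group, with 0.60 and 3.72 FPKM in LA and 2.29 and 1.67 FPKM in Ctrl. Sfrp2, Wif1, Dkk1, Dkk2 and Dkk4 were too low to test, with means of 0.025 to 0.585 FPKM.

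**Figure D3:**
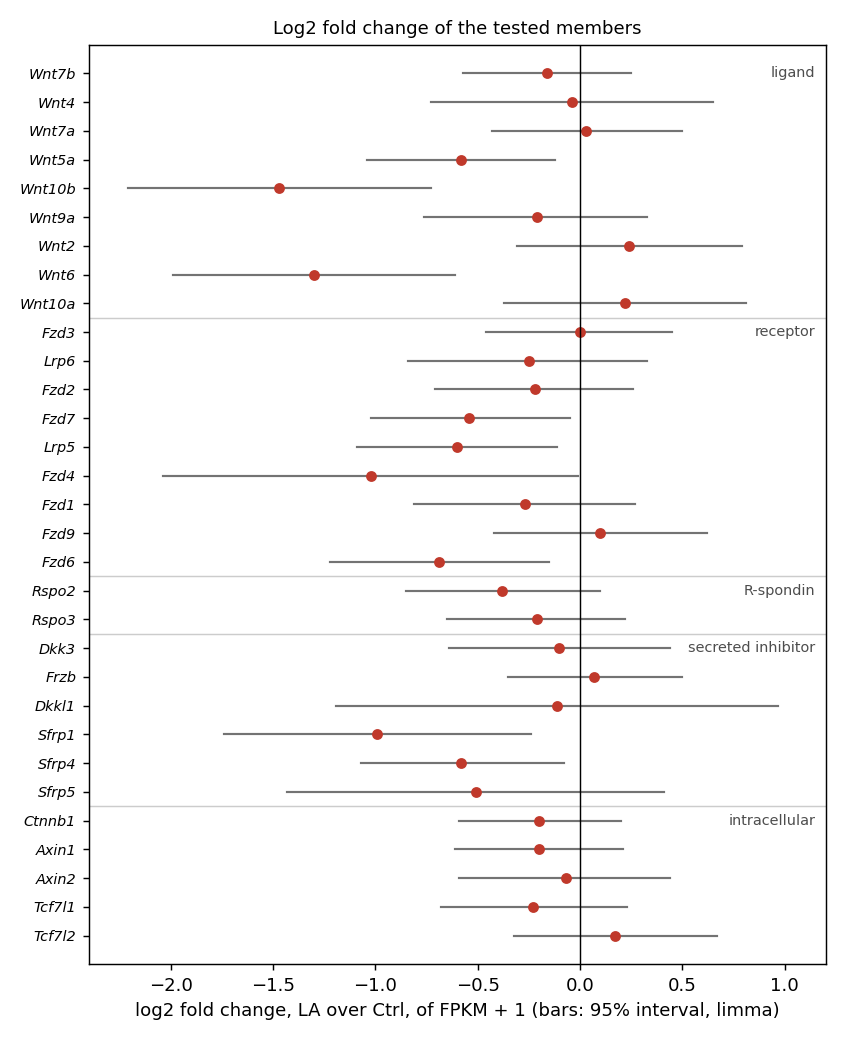
Log2 fold change of LA over Ctrl on the FPKM + 1 scale for the 31 tested members, with the 95% interval from limma, grouped by role. The intervals of 9 members lie below 0 before adjustment for the number of genes, those of Wnt10b and Wnt6 farthest, and 0 of the 31 passed after it.

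Inside the cell, Ctnnb1, which encodes β-catenin, had the highest level of the set, with 120.4 and 104 FPKM in LA and 123 and 134 FPKM in Ctrl. The groups did not overlap, yet the gap between LA replicate 1 and Ctrl replicate 2 was smaller than the spread within LA. Its log2 fold change was -0.20, with a 95% interval of -0.59 to 0.20. Axin1, the scaffold of the destruction complex, had 7.14 and 7.45 FPKM in LA and 7.83 and 9.24 FPKM in Ctrl, a log2 fold change of -0.20 (95% interval -0.61 to 0.21). Axin2, the relative of Axin1 that canonical signalling induces and that is often read as its reporter, had 6.17 and 4.14 FPKM in LA and 5.67 and 5.13 FPKM in Ctrl. Both Ctrl values of Axin2 lay between the LA values, and the log2 fold change was -0.07 (95% interval -0.59 to 0.44).

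Among the factors that bind DNA, Tcf7l1, which often acts as a repressor, averaged 2.25 ± 0.0919 FPKM in LA and 2.79 ± 0.134 FPKM in Ctrl, and Tcf7l2, a factor abundant in thalamus and in oligodendrocytes that are maturing, 1.73 ± 0.170 FPKM in LA and 1.42 ± 0.198 FPKM in Ctrl (SD, n = 2 each). Tcf7l2 was the only gene of the 52 with both LA libraries above both Ctrl libraries. Its 95% interval of the log2 fold change was -0.32 to 0.67. The 12 oligodendrocyte markers, which summed to 3590 and 4390 FPKM in LA and 2320 and 2010 FPKM in Ctrl, all had both LA libraries above both Ctrl libraries, against 15.7% of all genes in the table. The 16 markers of thalamus and habenula summed to 95.9 and 94.6 FPKM in LA and 96.3 and 94.4 FPKM in Ctrl, with Gbx2 and Pou4f1 at 0 in at least 1 library. Both LA libraries were below both Ctrl libraries for 3 of these 16 and above them for 2, against 20.1% and 15.7% of all genes. The part of the oligodendrocyte, thalamus and habenula markers in the value of Tcf7l2 was not tested. Tcf7 and Lef1 were too low to test, at 0.71 and 0.55 FPKM for Tcf7 in LA and 0.93 and 1.09 FPKM in Ctrl, and at 0.36 and 0.87 FPKM for Lef1 in LA and 0.63 and 1.05 FPKM in Ctrl.

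The genes left untested numbered 21, with means of 0.0225 to 0.985 FPKM. They comprised 10 ligands (Wnt1, Wnt2b, Wnt3, Wnt3a, Wnt5b, Wnt8a, Wnt8b, Wnt9b, Wnt11 and Wnt16), 3 Frizzled receptors, 5 inhibitors, Rspo1, Tcf7 and Lef1. Wnt9b and Wnt3 overlap in the annotation, and reads could be split between them. For 5 of the 21, Wnt1, Wnt2b, Wnt5b, Dkk1 and Tcf7, both LA libraries lay below both Ctrl libraries, where 20.1% of all genes in the table did so. Wnt3a, Dkk1 and Dkk4 were listed at 0 in at least 1 library.

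The lower values of the 9 members of smallest p stood beside differences in markers of other tissues. Deviations of log2(FPKM + 1) from the mean of the 4 libraries had a median over the leptomeningeal markers of -0.70 and -0.95 in LA replicates 1 and 2 and of 0.87 and 0.70 in Ctrl replicates 2 and 3. Wnt5a deviated by -0.24 and -0.34 in LA and 0.28 and 0.30 in Ctrl, and Sfrp4 by -0.29 in both LA libraries and 0.36 and 0.22 in Ctrl. The 9 members were picked by p, and each had both LA libraries below both Ctrl libraries. An order of groups shared with these markers was thus given by the choice of genes. Wnt6 deviated by -0.84 and -0.46 in LA and by 1.00 and 0.30 in Ctrl. The choroid plexus markers, by contrast, were high in Ctrl replicate 3 alone (2.59, against -0.84 and -0.75 in LA and -1.05 in Ctrl replicate 2). Fzd4 deviated by -0.47 and -0.55 in LA, -0.22 in Ctrl replicate 2 and 1.25 in Ctrl replicate 3. Sfrp1 deviated by -0.59 and -0.40 in LA, 0.03 in Ctrl replicate 2 and 0.96 in Ctrl replicate 3, and Wnt10b by -0.88 and -0.60 in LA, 0.30 in Ctrl replicate 2 and 1.18 in Ctrl replicate 3. All 3 genes and the choroid plexus markers were highest in Ctrl replicate 3. The median of those markers was lowest in Ctrl replicate 2, where the 3 genes lay above both LA libraries, as all 9 members did. Single markers differed in this. Both LA libraries were below both Ctrl libraries for 2 of the 15 choroid plexus markers, Kcnj13 and Kl, and above them for 0. A link between these genes and the choroid plexus markers was not tested. The endothelial markers had medians of -0.28 and -0.38 in LA and 0.05 and 0.59 in Ctrl, with both LA libraries below both Ctrl libraries for 9 of 12 and sums of 40.9 and 39.6 FPKM in LA and 51.7 and 115 FPKM in Ctrl. The 10 markers of mural cells, the pericytes and smooth muscle of vessels, summed to 38.6 and 38.8 FPKM in LA and 81.6 and 77.5 FPKM in Ctrl, with both LA libraries below both Ctrl libraries for 6 and above them for 1. Much of that difference was Vtn, which encodes vitronectin, with 13.2 and 15.8 FPKM in LA and 50.8 and 45.5 FPKM in Ctrl (log2 fold change -1.67, adjusted p = 0.0196 from limma). Vtn was the only mural marker to pass. Of the 17 leptomeningeal markers, 7 passed lower with LA and 0 higher, against 0.141% and 0% of all tested genes. Both lists were chosen with earlier results of these data known. The 12 microglial markers went the other way, with median deviations of 0.23 and 0.12 in LA and -0.10 and -0.25 in Ctrl and both LA libraries above both Ctrl libraries for 8. Of the 11 tested markers of cortex, 10 had a negative log2 fold change (median -0.23), against 52.4% of all tested genes. Both LA libraries were below both Ctrl libraries for 2 of the 12 cortex markers. Over all genes in the table, both LA libraries were below both Ctrl libraries for 20.1% and above them for 15.7%. No marker of these tissue and cell type lists was at 0 in any library. Their part in the lower values of the Wnt genes was not tested, and tissue share and LA cannot be told apart with these libraries.

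**Figure D4:**
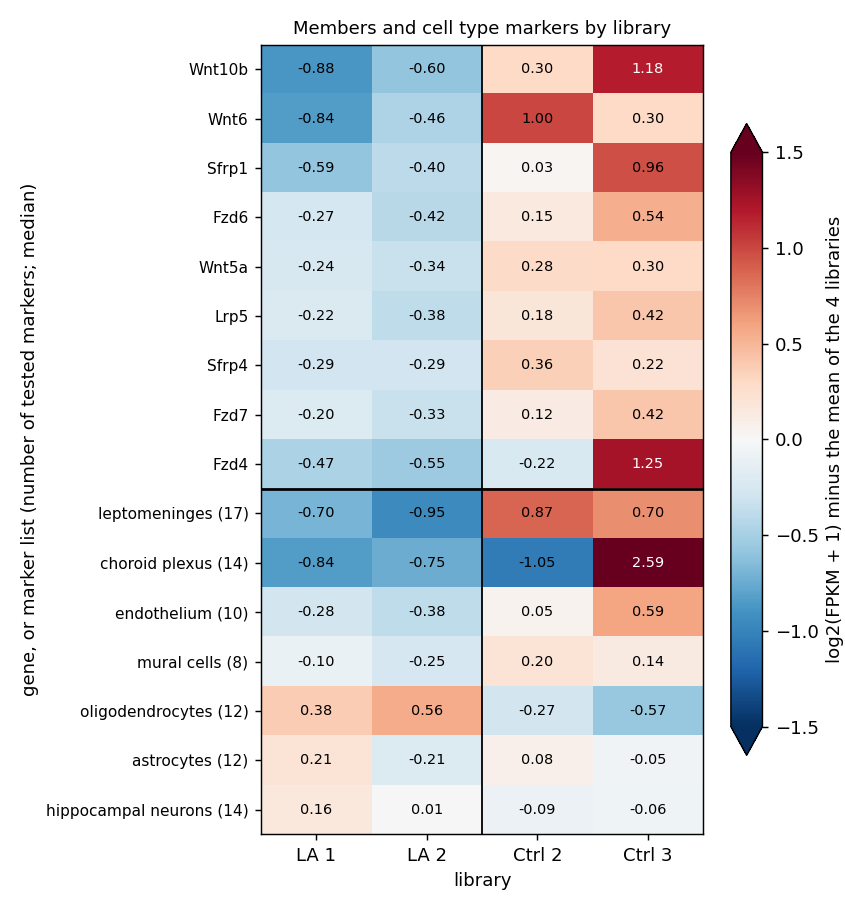
Deviation of log2(FPKM + 1) from the mean of the 4 libraries, for the 9 members of smallest p (above the line) and as the median of 7 of the 10 cell type lists (below it), with LA left of Ctrl. Leptomeningeal markers were high in both Ctrl libraries and choroid plexus markers in Ctrl replicate 3 alone (2.59, beyond the colour scale), while the median of the hippocampal neuron markers stayed between -0.09 and 0.16.

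Other genes of the pathway were taken from 5 lists written from textbook knowledge, which held 90 genes in the table. With limma 0 of the 78 tested genes passed in either direction, while 0.141% of all tested genes passed in the lower direction and 0% in the higher. At an unadjusted p under 0.05, 1 was lower and 1 higher, against 4.06% and 3.74% of all tested genes. Their median log2 fold change was -0.11, against -0.01 over all tested genes, with 55 below and 23 above 0, where 52.4% of all tested genes lay below 0. The lower gene was Wls, the carrier that brings every Wnt ligand to the cell surface, with 11.1 and 10.3 FPKM in LA and 15.0 and 20.8 FPKM in Ctrl. Both LA libraries were below both Ctrl libraries, and the log2 fold change was -0.67 (standard error 0.194, adjusted p = 0.468 from limma). Porcn, the enzyme that attaches the lipid to Wnt ligands, was nearly even, with 46.8 and 46.9 FPKM in LA and 52.5 and 49.1 FPKM in Ctrl, and Tmed5, a cargo receptor, had a log2 fold change of 0.27 (95% interval -0.10 to 0.64).

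At the cell surface, 12 of 15 tested genes had a negative log2 fold change, and limma gave 0 of the 15 an unadjusted p under 0.05. Adgra2, which presents Wnt7 ligands to Frizzled on brain endothelium, had 2.16 and 1.39 FPKM in LA and 3.13 and 2.64 FPKM in Ctrl, a log2 fold change of -0.50 (adjusted p = 0.673 from limma). The inhibitor Apcdd1 had -0.36 and the glypican Gpc4 -0.35 (adjusted p = 0.720 and 0.715 from limma). Sostdc1, an inhibitor listed also among the choroid plexus markers, had 1.67 and 2.12 FPKM in LA, 1.08 FPKM in Ctrl replicate 2 and 18.1 FPKM in Ctrl replicate 3, and was named after its values were seen. Sostdc1 passed without Ctrl replicate 2, the only gene of these lists to do so under any alternative.

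Of the 35 tested genes that carry the signal inside the cell, Amer2, a partner of APC at the membrane, was the higher gene, with 13.1 and 15.2 FPKM in LA and 10.3 and 10.0 FPKM in Ctrl. Its log2 fold change was 0.44 (standard error 0.163, adjusted p = 0.609 from limma). The co-repressor Tle4 had a log2 fold change of -0.37 and Dvl3, a Dishevelled protein that relays the signal from Frizzled, of -0.33 (adjusted p = 0.677 and 0.731 from limma). In the planar polarity list, Celsr1 had -0.27, Intu -0.25 and Celsr2 -0.16, and limma gave 0 of 13 tested genes an unadjusted p under 0.05. Both LA libraries were below both Ctrl libraries for 3 of the 13, these same genes picked by smallest p. Over all 13518 tested genes, 2838 had that order. Among 13 tested target genes, Id2, a helix-loop-helix inhibitor, had 77.4 and 66.6 FPKM in LA and 81.0 and 126 FPKM in Ctrl, and the cyclin gene Ccnd1 had 12.6 FPKM in both LA libraries and 12.7 and 9.44 FPKM in Ctrl. The targets had a median log2 fold change of -0.06, with 7 below and 6 above 0.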

How the data were processed

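Messenger RNA of the hippocampus was sequenced in 2 LA and 2 Ctrl libraries. FPKM were deposited by the authors in 1 table with a column for each library. TopHat2, Cufflinks and the build GRCm38 appear in the submitters' processing notes; versions and annotation: not given in the sources used here. Dates in place of 11 gene symbols were restored from RefSeq gene numbers.

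Genes averaging 1 FPKM or more were kept (13518), a pseudocount of 1 was added, and groups were compared on the log2 scale with limma 3.58.1 in R 4.3.3 (eBayes with trend, prior degrees of freedom 5.37), Benjamini-Hochberg over all genes, threshold 0.05. The procedure was tested on simulated data. An exact two-sided permutation test of 2 against 2 cannot give a p under 0.333. Relative depth was the mode of ratios between values of 0.1 to 0.6 FPKM; sampling error per gene was not computed.

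The members and lists were chosen with earlier results of these data known. Named genes were members past the threshold, the 12 of smallest p, the 2 most abundant per role and the 3 of smallest p in each of 5 other pathway lists. Other members named (such as Wnt7a, Wnt10a, Axin2 and those not tested) and Sostdc1 were added after their values were seen. As alternatives, the pseudocount was set to 0.1 or 0.5, the filter was dropped or raised to 5 FPKM, values were rescaled (quantile normalization or median ratios), the trend was dropped, estimation was made robust, and single libraries were omitted.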

Additional observations from a re-analysis of the deposited data

How the results depend on the processing

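Of the tested members, 0 passed under every alternative that kept all 4 libraries, and 0 to 3 did with a library left out: Wnt10b, Fzd4 and Sfrp1 without Ctrl replicate 2, and Wnt6 without Ctrl replicate 3. In the other pathway lists 0 to 1 gene passed. In such fits the spread of a lone library is taken from the other group. Wnt10b, Fzd4, Sfrp1 and Wnt6 also had an LA mean under 1 FPKM and reached the filter through the Ctrl libraries. Their passes are thus no support for a change. Over all genes 19 passed, but 0 by limma without a filter (776 lower and 557 higher at an unadjusted p under 0.05), 40 with robust estimation and 2 to 227 with a library left out, 2 without LA replicate 2. The median log2 fold change of the tested members was -0.21 and lay between -0.32 and -0.16 over the libraries left out. Counts added after seeing the data were 25 members below 0 (38 without a filter, 9 with a mean of at least 5 FPKM), 9 members at an unadjusted p under 0.05 (0 with a mean of at least 5 FPKM, which removes all 9, and 3 to 8 with a library left out, 3 without Ctrl replicate 3) and 0 to 1 higher ones, 1 without LA replicate 1.

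For single named genes, 389 alternative values had the same sign and call, 4 newly passed and 11 changed sign without being called. Fzd3 was 0.018 with median-ratio scaling and 0.031 with quantile normalization. With single libraries omitted, values crossed 0 for Fzd3 (-0.18 to 0.18), Dkk3 (-0.41 to 0.21), Wnt4 (-0.42 to 0.34), Lrp6 (-0.55 to 0.042), Sfrp5 (-1.06 to 0.042) and Ccnd1 (-0.014 to 0.38). The cause was not tested. No paired analysis was possible because the groups share only the replicate number 2, and the labels describe no pairing. Depth in reads is unknown, so counting error of low genes has no estimate.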
